A study of Mus musculus with 6 samples.

Results

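The SIBLING genes (small integrin-binding ligand N-linked glycoproteins) are 5 genes, *Dspp*, *Dmp1*, *Ibsp*, *Mepe* and *Spp1*. They were taken by gene symbol. The rule used no measured values, but earlier results of these data were known when the members were chosen. All 5 were found among the 53342 genes of the table and passed the filter on low counts. RNA sequencing had been carried out on dental pulp of 3-month-old mice on a C57BL/6 background, 3 WT (samples 2, 4 and 5) and 3 *Mmp13*-/- (samples 1, 2 and 6), each described by the study as an independent biological sample. The *Mmp13*-/- mice were homozygous for the loss of *Mmp13*, the gene of collagenase-3, and neither the labels nor the methods name a Cre or promoter that would restrict the loss to odontoblasts. Male mice were used per the methods of the study. The labels name molars and extraction on a column kit, and the methods name incisors and TRIzol.

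SIBLING proteins are secreted, acidic glycoproteins of mineralized matrix, encoded side by side in a single gene cluster. Odontoblasts, the cells that line the pulp and lay down dentin, secrete DSPP and DMP1, which bind calcium and guide the growth of mineral on collagen. Bone sialoprotein (*Ibsp*), MEPE and osteopontin (*Spp1*) are better known from osteoblasts, osteocytes and, for osteopontin, osteoclasts and macrophages. The proteins are phosphorylated by the Golgi kinase FAM20C, cleaved by proteases and bound by integrins through an arginine-glycine-aspartate (RGD) motif. PHEX, a peptidase tied to phosphate balance, degrades their acidic peptides.

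The features that define the family were read from the reference, in order to show what the transcripts encode. In the GENCODE M21 annotation of GRCm38 the 5 genes lie on the plus strand of chromosome 5 over 270 kb. *Dspp* lies at chr5:104170712-104180127, *Dmp1* at chr5:104202613-104214102, *Ibsp* at chr5:104299171-104311469, *Mepe* at chr5:104325329-104338611 and *Spp1* at chr5:104435118-104441050. Each coding sequence held the codons of the RGD motif 1 time. The windows below show them with the 9 bases of the motif in capitals, on the plus strand of GRCm38. They lie at chr5:104177192-104177230 in exon 5 of 5 of *Dspp*, chr5:104212492-104212530 in exon 6 of 6 of *Dmp1*, chr5:104310460-104310498 in exon 7 of 7 of *Ibsp*, chr5:104337527-104337565 in exon 3 of 3 of *Mepe* and chr5:104439466-104439504 in exon 7 of 8 of *Spp1*.
Dspp: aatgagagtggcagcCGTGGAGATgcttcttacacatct
Dmp1: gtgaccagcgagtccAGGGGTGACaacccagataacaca
Ibsp: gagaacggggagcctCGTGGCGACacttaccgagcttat
Mepe: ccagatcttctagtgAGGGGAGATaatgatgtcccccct
Spp1: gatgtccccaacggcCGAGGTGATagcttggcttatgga
The motif had 5 different spellings in the 5 members. The members differed more in their serine content. Serine codons made up 36.4% of the *Dspp* coding sequence, 22.9% of *Dmp1*, 17.3% of *Spp1*, 14.1% of *Mepe* and 8.02% of *Ibsp*, beside a median of 7.91% over 20956 protein-coding genes. Aspartate and glutamate codons made up 28.0% of *Dmp1*, 25.3% of *Dspp*, 24.1% of *Ibsp* and 23.1% of *Spp1* but 10.7% of *Mepe*, with a median of 11.2% over all genes. Serine-any-glutamate triplets, a sequence that FAM20C phosphorylates, occurred 7.95 times per 100 codons in *Dmp1* and 6.78 times in *Spp1*. They occurred 2.47 times in *Ibsp*, 1.59 in *Mepe* and 1.06 in *Dspp*, against a median of 0.45. *Dspp* thus still stood at percentile 90.8 of all genes. Other sequences that may be phosphorylated were not counted.

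*Dspp* carries a long repeat in its last exon, which encodes dentin phosphoprotein. A stretch of 150 bases from codon 831 to codon 880 of 945 (chr5:104178263-104178412, exon 5 of 5, plus strand, GRCm38) is shown because reads from it resemble one another. The 9 bases found most often in frame are in capitals.
Dspp: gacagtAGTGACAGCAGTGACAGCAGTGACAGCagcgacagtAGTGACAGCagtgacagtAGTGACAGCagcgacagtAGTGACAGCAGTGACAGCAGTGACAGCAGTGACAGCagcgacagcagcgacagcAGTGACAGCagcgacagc
These 9 bases, which read serine, aspartate and serine, occurred 10 times in the stretch and 52 times in frame in the whole coding sequence. Words of 12 bases that recur within the same coding sequence took up 37.9% of *Dspp* and at most 0.624% of any other member. How reads from such repeats were aligned is not given in the sources used here.

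The promoters were examined because several members changed together. RefSeq promoters of GRCm38.p6, each reaching from 250 bases before to 50 bases after the annotated start, were matched for *Dmp1*, *Ibsp*, *Mepe* and *Spp1*, 4 of the 5 members. The sequences below are the parts of these promoters around an inverted CCAAT box (ATTGG) and the TTTAAA or TTTATA box that follows it, both in capitals. They lie on the plus strand at chr5:104202540-104202606 for *Dmp1*, chr5:104299213-104299279 for *Ibsp*, chr5:104325288-104325354 for *Mepe* and chr5:104435045-104435111 for *Spp1*.
Dmp1: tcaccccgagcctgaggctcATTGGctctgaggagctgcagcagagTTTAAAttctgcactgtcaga
Ibsp: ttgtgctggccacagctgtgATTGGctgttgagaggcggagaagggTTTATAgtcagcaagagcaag
Mepe: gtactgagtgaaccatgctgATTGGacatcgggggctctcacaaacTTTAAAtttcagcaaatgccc
Spp1: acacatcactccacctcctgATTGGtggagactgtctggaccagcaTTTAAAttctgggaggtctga
The spacing was identical in the 4 promoters, with 21 bases between ATTGG and the box. The position was not: relative to the RefSeq start, the box began at −31 in *Dmp1*, −28 in *Ibsp* and −20 in *Spp1*. In *Mepe* it began at 5, past that start. Of 32817 promoters of the same length, 37.4% held CCAAT on either strand, 13.2% held TTTAAA (which reads the same on both strands) and 13.6% held TATAAA on either strand. ATTGG followed after exactly 21 bases by TTTAAA or TTTATA on the strand of the gene was found in 0.0518% of promoters (17 entries of 13 genes), whereas the same letters at any distance were found in 2.02%. The 13 genes comprised the 4 members, *Sost*, which encodes the osteocyte protein sclerostin, and 8 others. This arrangement was noticed in the sequences and then counted, and it was also present in *Dmp1*, which did not change with the other members. The RefSeq starts lay 4, 116, 0 and 7 bases from the GENCODE starts of *Dmp1*, *Ibsp*, *Mepe* and *Spp1*. The RUNX core ACCACA, on either strand, was found in *Dmp1*, *Mepe* and *Spp1* and in 16.8% of all promoters. The letters TGANTCA, an AP-1 site read on both strands, were found in no member and in 7.81% of promoters.

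The table held 26301896, 26547121 and 21561420 estimated counts in *Mmp13*-/- samples 1, 2 and 6, and 28442936 to 29980236 in WT samples. Normalized counts, which are estimated counts divided by the library size after TMM scaling and returned to the scale of the mean library, are used below. The targeted gene had 1009, 1072 and 825.8 normalized counts in WT samples 2, 4 and 5, against 8.85, 30.1 and 64.0 in *Mmp13*-/- samples 1, 2 and 6. The *Mmp13*-/- libraries also stood apart in make-up. Genes that match the major satellite repeat held 5.87%, 10.3% and 46.1% of counts in *Mmp13*-/- samples 1, 2 and 6 and at most 0.0445% in WT samples, and log2 fold changes followed transcript GC content (Spearman's rho −0.562 over 16953 coding genes, a description since genes are no independent replicates). This make-up and the genotype cannot be told apart, and each member is also given after a GC correction and without sample 6.

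Of the 5 SIBLING genes, 4 were higher in *Mmp13*-/- pulp and 1, *Dmp1*, did not pass the test. *Spp1* rose by a log2 fold change of 3.53 (11.5-fold), *Mepe* by 2.35 (5.10-fold), *Ibsp* by 1.56 (2.95-fold) and *Dspp* by 1.13 (2.19-fold). A gene passed when edgeR's quasi-likelihood test gave it an adjusted p under 0.05. Changes were common in the comparison: 27.3% of the 24534 genes tested passed as higher and 24.3% as lower, and 20.4% rose and 9.68% fell over 2-fold. All 4 members that passed rose over 2-fold. The median log2 fold change was 1.56 over the members and 0.10 over all genes tested. In 3 members every *Mmp13*-/- sample lay above every WT sample, as in 31.8% of all genes tested, and in no member did every *Mmp13*-/- sample lie below, as in 29.1%. In pulp tissue a change in the number of cells of a type and a change in RNA per cell cannot be told apart.

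**Figure D1:**
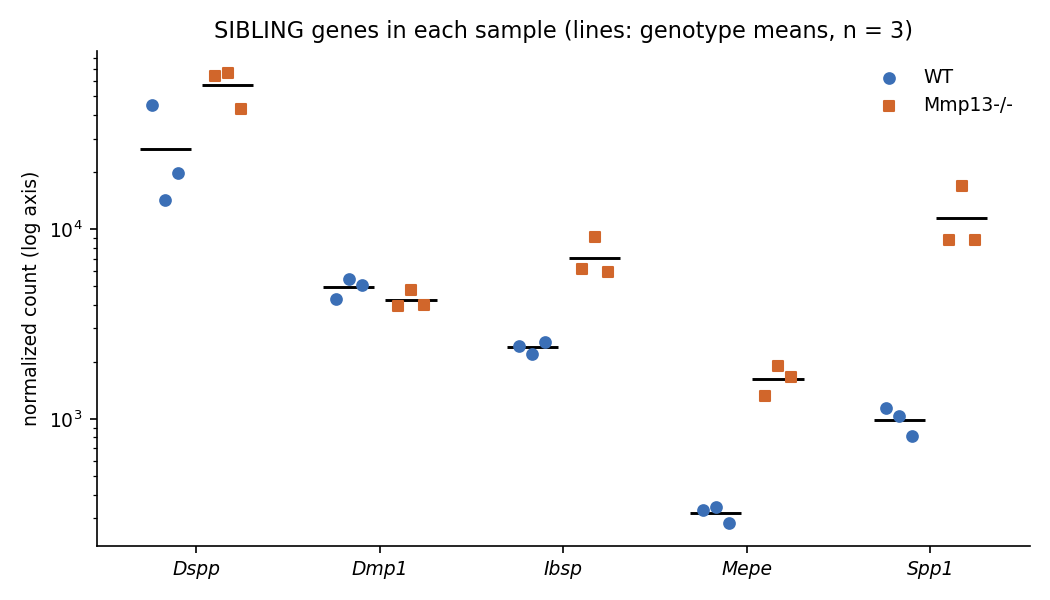
Normalized counts (log axis) of the 5 SIBLING genes in each of the 3 WT (circles) and 3 *Mmp13*-/- samples (squares), with lines at the genotype means. *Ibsp*, *Mepe* and *Spp1* are separated by genotype, *Dmp1* overlaps, and in *Dspp* WT sample 2, at 45020, lies above *Mmp13*-/- sample 6, at 42970.

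*Dspp* encodes the precursor of dentin sialoprotein and dentin phosphoprotein, the main non-collagenous proteins of dentin. It had 45020, 14330 and 19820 normalized counts in WT samples 2, 4 and 5, against 64040, 66250 and 42970 in *Mmp13*-/- samples 1, 2 and 6. WT sample 2 was the highest of its genotype and lay above *Mmp13*-/- sample 6. The means were 26390 ± 16360 (SD, n = 3) and 57750 ± 12850 (SD, n = 3), a log2 fold change of 1.13 with a standard error of 0.40 (95% interval 0.24 to 2.02, edgeR adjusted p = 0.037). This call was not stable. It was lost with DESeq2 (1.15, adjusted p = 0.0639), with limma (1.22, adjusted p = 0.115), and in edgeR without WT sample 4 (0.79, adjusted p = 0.153), WT sample 5 (0.89, adjusted p = 0.149), *Mmp13*-/- sample 1 (0.99, adjusted p = 0.0813) or *Mmp13*-/- sample 2 (0.97, adjusted p = 0.077). It was 1.69 without WT sample 2, 1.31 without *Mmp13*-/- sample 6 and 1.37 after the GC correction, and passed in each of these.

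WT sample 2, which was high in *Dspp*, was also high in enamel matrix genes. It was also the highest WT sample in *Phex*, a listed odontoblast marker (4297, against 1951 and 2275 in WT samples 4 and 5). *Ambn*, which encodes ameloblastin, had 57720, 21280 and 22210 normalized counts in WT samples 2, 4 and 5, against 73580, 70400 and 51910 in *Mmp13*-/- samples 1, 2 and 6. *Amelx*, which encodes amelogenin, had 42430, 11090 and 3841 in WT samples, against 23230 to 29320 in *Mmp13*-/- samples. Their log2 fold changes of 0.95 (edgeR adjusted p = 0.0616) and 0.48 (edgeR adjusted p = 0.557) did not pass. Both rested on single WT samples. Without WT sample 2 *Ambn* was at 1.51 (edgeR adjusted p = 0.00429) and *Amelx* at 1.76 (edgeR adjusted p = 0.0081), and both passed. Without WT sample 5 they were at 0.65 (edgeR adjusted p = 0.25) and −0.08 (edgeR adjusted p = 0.907). *Ambn* passed in 9 of 18 alternatives, among them upper-quartile factors (1.15, edgeR adjusted p = 0.0296). The ratio of *Dspp* to *Ambn* counts was 0.673 to 0.893 in WT and 0.828 to 0.941 in *Mmp13*-/-, overlapping between genotypes. That of *Dspp* to *Phex* counts was 7.35 to 10.5 in WT and 6.07 to 6.66 in *Mmp13*-/-, without overlap. Of 7 ameloblast markers 2 passed, both higher, with a median log2 fold change of 0.85, and their summed level ran from 41170 to 126100 in WT and from 103800 to 143800 in *Mmp13*-/-. Without WT sample 2, 5 passed as higher and 1 as lower (median 1.51), and without WT sample 4 or WT sample 5 at most 1 passed. None was at 0 in every WT sample. Their part in the *Dspp* result was not tested.

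*Dmp1* encodes dentin matrix protein 1, made by odontoblasts and osteocytes and needed for mineralization and phosphate balance. It had 4285, 5454 and 5113 normalized counts in WT samples 2, 4 and 5, against 3953, 4811 and 3976 in *Mmp13*-/- samples 1, 2 and 6. The ranges overlapped, with *Mmp13*-/- sample 2 above WT sample 2. The means of 4951 ± 601.2 and 4247 ± 488.9 (SD, n = 3 each) gave a log2 fold change of −0.22 with a standard error of 0.17 (95% interval −0.59 to 0.15, edgeR adjusted p = 0.292). The interval reached from 0.663 to 1.11 times the WT level, and the estimates of the other 4 members lay above it. The sign turned with the GC correction (0.24, edgeR adjusted p = 0.181), where the median over all genes was 0.33. It was kept without *Mmp13*-/- sample 6 (−0.17), and no alternative brought the gene past the test.

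*Ibsp* encodes bone sialoprotein, a nucleator of hydroxyapatite found in bone and cementum. It had 2412, 2214 and 2532 normalized counts in WT samples 2, 4 and 5, the tightest group of the family, against 6154, 9047 and 5939 in *Mmp13*-/- samples 1, 2 and 6. Every *Mmp13*-/- sample lay above every WT sample. The log2 fold change was 1.56 with a standard error of 0.20 (95% interval 1.12 to 2, edgeR adjusted p = 0.000233), 1.49 after the GC correction and 1.67 without *Mmp13*-/- sample 6.

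*Mepe*, matrix extracellular phosphoglycoprotein, is known as a gene of osteocytes and odontoblasts whose acidic peptide inhibits mineralization. It was the least abundant member, with 331.5, 346.3 and 283 normalized counts in WT samples 2, 4 and 5, against 1321, 1908 and 1672 in *Mmp13*-/- samples 1, 2 and 6. The lowest *Mmp13*-/- sample stood well above the highest WT sample. The log2 fold change was 2.35 with a standard error of 0.17 (95% interval 1.96 to 2.74, edgeR adjusted p = 3.51e-05). It was 2.72 after the GC correction and 2.33 without *Mmp13*-/- sample 6.

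*Spp1*, osteopontin, binds integrins and CD44 and inhibits crystal growth. It had 1137, 1033 and 813.6 normalized counts in WT samples 2, 4 and 5, against 8747, 16910 and 8739 in *Mmp13*-/- samples 1, 2 and 6. The genotypes were far apart, and *Mmp13*-/- sample 2 was the highest. The log2 fold change of 3.53 had a standard error of 0.30 (95% interval 2.86 to 4.19, edgeR adjusted p = 5.29e-05). It was 3.08 to 3.69 with each sample left out in turn and 3.22 after the GC correction. *Gm42793*, an unconfirmed transcript on the same strand that overlaps *Spp1*, also rose (log2 fold change 2.54), and reads of the pair may have been divided between them.

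*Ibsp*, *Mepe* and *Spp1* passed in all 18 alternatives and *Dspp* in 12. The intervals of *Spp1* and *Mepe* did not overlap, nor did those of *Mepe* and *Dmp1*. The differences between members were not tested as such, except through their shares of the pool below.

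**Figure D2:**
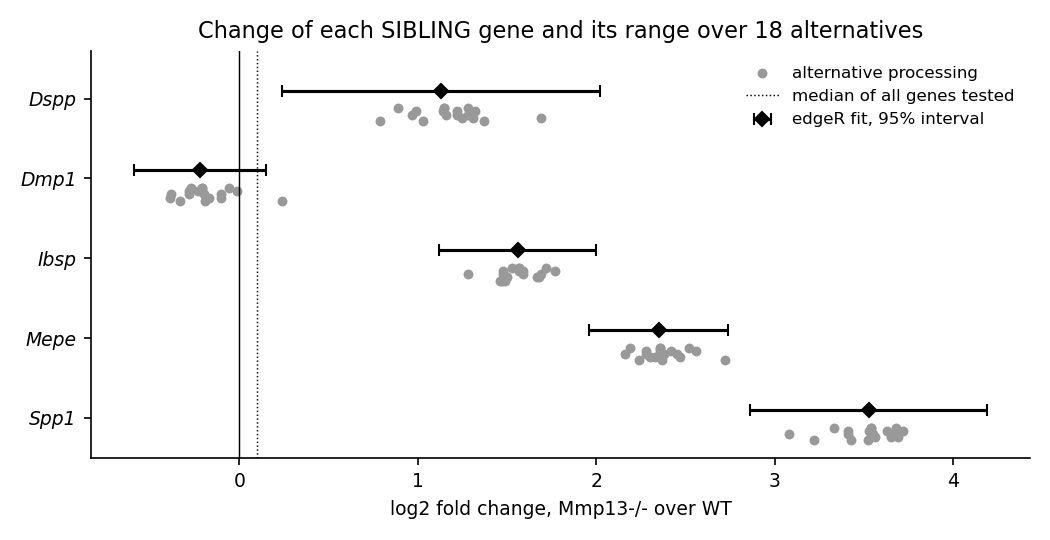
Log2 fold change of each SIBLING gene (diamonds, with 95% intervals) and its values under 18 alternative settings (grey points), beside the median of all genes tested (dotted line, 0.10). *Spp1* ranged from 3.08 to 3.72, *Mepe* from 2.16 to 2.72, *Ibsp* from 1.28 to 1.77, *Dspp* from 0.79 to 1.69 and *Dmp1* from −0.39 to 0.24.

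Levels were compared between members only after division by transcript length, as normalized counts per kilobase. In WT the order was *Dspp* (5956 ± 3693), *Dmp1* (1791 ± 217.5), *Ibsp* (1154 ± 77.7), *Spp1* (659.8 ± 109.4) and *Mepe* (190.4 ± 19.7, SD, n = 3 each), and no neighbours in this order overlapped. In *Mmp13*-/- the order was *Dspp* (13030 ± 2900), *Spp1* (7609 ± 3130), *Ibsp* (3408 ± 839.3), *Dmp1* (1537 ± 176.9) and *Mepe* (971.4 ± 175.7, SD, n = 3 each). *Dspp* and *Spp1* overlapped there, with a ratio of means of 1.71, and no other neighbours did. Among 21852 protein-coding genes, *Spp1* moved from rank 1700 in WT to rank 69, *Mepe* from 6398 to 704 and *Ibsp* from 767 to 173, whereas *Dmp1* stood at 430 and 419. *Dspp* was among the most abundant transcripts in both genotypes, at ranks 91 and 43.

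Shares within the family do not depend on the scaling between libraries. The summed level of the 5 members was 13830, 7169 and 8256 per kilobase in WT samples 2, 4 and 5, against 25450, 33420 and 20800 in *Mmp13*-/- samples 1, 2 and 6. *Spp1* made up 5.45%, 9.56% and 6.54% of it in WT samples 2, 4 and 5, against 22.8%, 33.6% and 27.9% in *Mmp13*-/- samples 1, 2 and 6. *Dmp1* went the other way, from 11.2%, 27.5% and 22.4% to 5.62%, 5.21% and 6.92%. *Mepe* made up 2.11% ± 0.726 in WT and 3.75% ± 0.902 in *Mmp13*-/- (SD, n = 3). These 3 shares did not overlap between genotypes, and each had a two-sided exact permutation p of 0.1, which is the smallest that 3 samples against 3 allow and cannot pass 0.05. The shares of *Dspp* (57.6% ± 14.5 and 49.4% ± 6.49) and *Ibsp* (12.7% ± 3.72 and 12.9% ± 1.07) overlapped (SD, n = 3, two-sided exact permutation p = 0.6 and 1.0). With 5 shares compared, none passed.

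**Figure D3:**
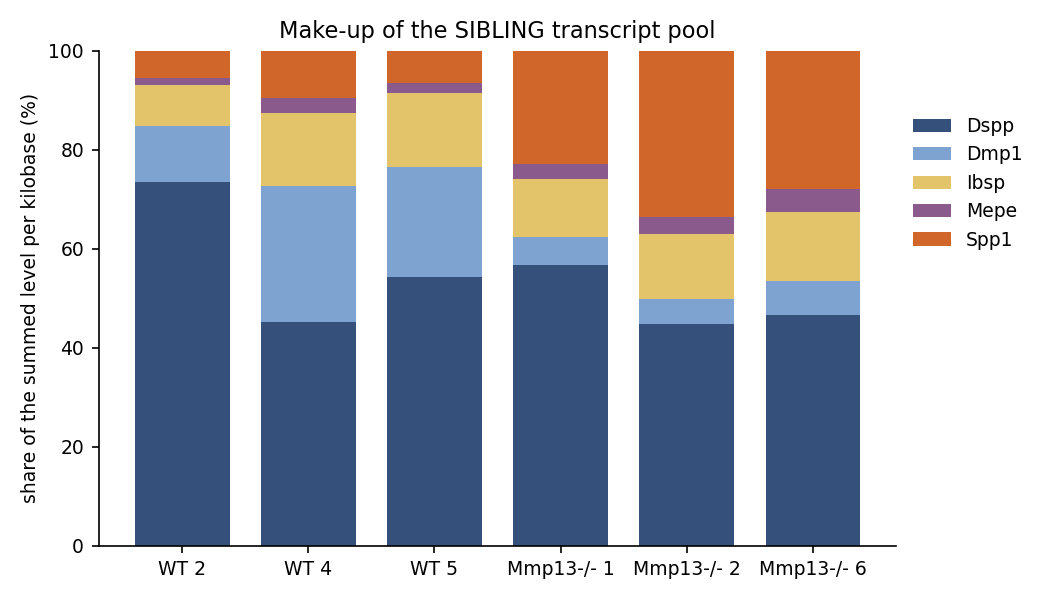
Share of each SIBLING gene in the summed level per kilobase of the family (%), in each WT and *Mmp13*-/- sample. *Spp1* takes 5.45% to 9.56% of the pool in WT samples, against 22.8% to 33.6% in *Mmp13*-/- samples, while *Dmp1* takes 11.2% to 27.5% and 5.21% to 6.92%.

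The enzymes that modify SIBLING proteins were described from a list of 14 genes, of which 13 were tested and 9 passed, 4 higher and 5 lower, with a median log2 fold change of −0.23. *Fam20c*, the kinase itself, had 2672, 2578 and 2280 normalized counts in WT samples 2, 4 and 5, against 1366, 1454 and 1190 in *Mmp13*-/- samples 1, 2 and 6. Its log2 fold change was −0.91 with a standard error of 0.14 (edgeR adjusted p = 0.000752), and 0.10 after the GC correction, which ended the call and turned the sign. *Bmp1*, the proteinase that cleaves DSPP and DMP1 into their fragments, fell by 1.30 on the log2 scale (edgeR adjusted p = 0.000271), and was −0.34 after the GC correction (edgeR adjusted p = 0.0539). *Phex*, an endopeptidase that degrades acidic SIBLING peptides, stood at 4297, 1951 and 2275 in WT samples 2, 4 and 5, against 9614, 10700 and 7074 in *Mmp13*-/- samples. It rose by 1.68 (edgeR adjusted p = 0.00135) and by 1.01 after the GC correction (edgeR adjusted p = 0.00925). *Mmp20*, the enamelysin of odontoblasts and ameloblasts, rose by 1.31 (edgeR adjusted p = 0.0182), although WT sample 2, at 2250 counts, overlapped *Mmp13*-/- sample 6, at 2180, and the call was lost after the GC correction (0.88, adjusted p = 0.0721). *Acp5*, the tartrate-resistant phosphatase of osteoclasts that removes phosphate from osteopontin, rose by 1.78 (edgeR adjusted p = 0.000629) and by 2.66 after the GC correction. *Mmp2*, which can cleave DSPP, was at −0.23 (edgeR adjusted p = 0.355), and passed as higher after the GC correction (0.62, edgeR adjusted p = 0.0168). After the GC correction 4 genes of the list passed as higher and 1 as lower.

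Of 11 receptor genes 8 passed, 5 higher and 3 lower, with a median log2 fold change of 0.33. *Itgb1*, the common integrin beta 1 chain, had 4587, 3592 and 4407 normalized counts in WT samples 2, 4 and 5, against 9744, 11540 and 8475 in *Mmp13*-/- samples 1, 2 and 6, and rose by 1.24 (standard error 0.19, edgeR adjusted p = 0.00056). *Cd44*, the hyaluronan receptor that also binds osteopontin, rose by 0.55 (edgeR adjusted p = 0.0148), a call made in only 10 of 18 alternatives. The chains of the integrin best known to bind the RGD motif did not pass, with *Itgav* at 0.07 (edgeR adjusted p = 0.777) and *Itgb3* at 0.33 (edgeR adjusted p = 0.296). After the GC correction *Itgb3* passed as higher (0.89, edgeR adjusted p = 0.00964). The small value of *Itgav* changed sign between settings. *Itgb5* fell by 0.96 on the log2 scale (edgeR adjusted p = 0.00294), a call that was lost at 0.03 after the GC correction. With library totals in place of TMM factors 2 receptor genes passed, both higher. The count was 4 without WT sample 2 and 5 without WT sample 5, *Mmp13*-/- sample 1 or *Mmp13*-/- sample 2.

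Of 15 regulators of SIBLING transcription 11 passed and all 11 were lower, with a median log2 fold change of −0.75. None passed as higher, while 4 of the 5 members did. *Nfic*, a factor of odontoblast differentiation and root dentin, had 5960, 6677 and 5656 normalized counts in WT samples 2, 4 and 5, against 1416, 1717 and 1135 in *Mmp13*-/- samples 1, 2 and 6, a log2 fold change of −2.10 (standard error 0.19, edgeR adjusted p = 6.53e-05). *Tgfb1*, a growth factor stored in dentin, fell by 1.76 on the log2 scale (edgeR adjusted p = 4.88e-05), and its signal transducer *Smad3* fell by 1.15 (edgeR adjusted p = 0.000568). These 3 genes stayed lower after the GC correction, at −1.10, −1.15 and −0.51. *Sp7* (osterix) was at −0.75, *Dlx3* at −0.98, *Dlx5* at −0.66 and *Klf4* at −0.61, all passing in the main edgeR fit. None of them passed after the GC correction (0.01, −0.08, 0.13 and 0.20). Of 18 alternatives, *Sp7* passed in 15, *Dlx3* in 17, *Dlx5* in 14 and *Klf4* in 9. *Runx2*, the master regulator of osteoblasts, did not pass (−0.44, edgeR adjusted p = 0.093), but passed as lower in 3 of 18 alternatives. After the GC correction 3 of the 15 passed as lower and 2 as higher, and the list median was −0.08, so that 8 of the 11 lower calls ended. Genes passing in the whole comparison fell from 12665 to 8883 with the correction.

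**Figure D4:**
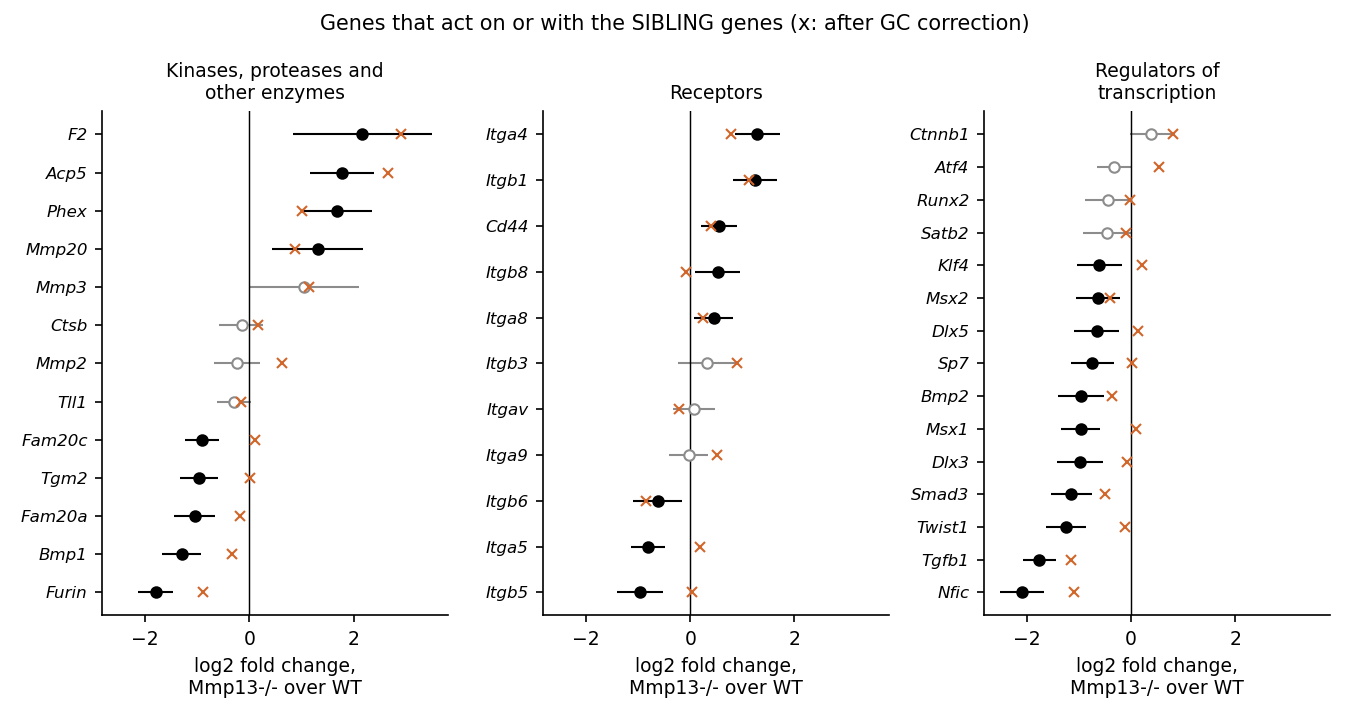
Log2 fold change (circles, with 95% intervals, filled where the edgeR adjusted p was under 0.05) of the tested genes that modify, bind or regulate SIBLING genes, with the value after GC correction (crosses). Before correction 11 of 15 regulators passed as lower, and after it 3 did, led by *Tgfb1* at −1.15 and *Nfic* at −1.10.

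Markers of the cells that could supply the transcripts were examined beside the members. Of 13 odontoblast markers 6 passed as lower and 2 as higher (median log2 fold change −0.34). The 2 higher were *Phex* (1.68, edgeR adjusted p = 0.00135) and *Mmp20* (1.31, edgeR adjusted p = 0.0182). After the GC correction *Phex* still passed (1.01, edgeR adjusted p = 0.00925) and *Mmp20* did not (0.88, edgeR adjusted p = 0.0721). *Nes*, nestin of the odontoblast process, fell by 1.21 on the log2 scale (edgeR adjusted p = 0.000909), a call that ended after the GC correction (−0.36, edgeR adjusted p = 0.129). *Smpd3*, a sphingomyelinase needed for dentin mineralization, was at −0.34 (edgeR adjusted p = 0.09), and passed as lower without WT sample 4 (−0.49, edgeR adjusted p = 0.0428) and as higher after the GC correction (0.55, edgeR adjusted p = 0.0445). After the GC correction 4 odontoblast markers passed as higher and 1 as lower (median 0.24). Summed levels of the odontoblast list, which type I collagen dominates, ran from 1514000 to 1702000 in WT and from 430800 to 577300 in *Mmp13*-/-.

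Of 11 osteoblast and osteocyte markers 3 passed as lower and 1 as higher (median −0.19), and after the GC correction 2 passed as lower and 4 as higher (median 0.66). *Sost* had 1484, 1984 and 1743 normalized counts in WT samples, against 1272, 1706 and 1557 in *Mmp13*-/- samples, so the osteocyte gene that shares the promoter spacing overlapped between genotypes (−0.20, edgeR adjusted p = 0.336). After the GC correction *Sost* turned and passed as higher (0.80, edgeR adjusted p = 0.00576). The ratio of *Mepe* to *Sost* counts was 0.223, 0.175 and 0.162 in WT samples, against 1.04, 1.12 and 1.07 in *Mmp13*-/- samples. *Fgf23* (0.38, edgeR adjusted p = 0.473) and *Ifitm5* (−0.06, edgeR adjusted p = 0.883), further genes of bone cells, were low and did not pass.

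Osteoclast markers were set beside *Spp1*. Of 11, 8 passed as higher and 1 as lower, with a median log2 fold change of 1.73, and their summed level ran from 6848 to 9398 in WT and from 13260 to 22150 in *Mmp13*-/-. *Ctsk*, the collagen-degrading cathepsin of osteoclasts, had 1214, 1062 and 1057 normalized counts in WT samples 2, 4 and 5, against 4691, 8033 and 4543 in *Mmp13*-/- samples 1, 2 and 6, a log2 fold change of 2.37 (edgeR adjusted p = 9.9e-05). *Spp1* and *Ctsk* were both highest in *Mmp13*-/- sample 2. The ratio of *Spp1* to *Ctsk* counts, chosen after values were seen, was 0.936, 0.972 and 0.77 in WT samples. It was 1.86, 2.11 and 1.92 in *Mmp13*-/- samples, without overlap. Macrophage markers passed as higher in 4 of 11 cases (median 0.44), in 8 with upper-quartile factors (median 0.64) and in 10 after the GC correction (median 1.21). *Csf1r* (0.44, edgeR adjusted p = 0.051), *Cd68* (0.33, edgeR adjusted p = 0.148) and *Gpnmb* (−0.24, edgeR adjusted p = 0.372) did not pass. *Csf1r* passed in 9 of 18 alternatives and *Cd68* in 3, and after the GC correction they were at 1.21 (edgeR adjusted p = 0.000538) and 0.97 (edgeR adjusted p = 0.00414). Marrow neutrophil markers passed as higher in 8 of 9 cases, from 3863 to 8090 summed in WT and from 19740 to 48230 in *Mmp13*-/-, and skeletal muscle markers passed as lower in 8 of 11 cases, from 2710000 to 3170000 summed in WT and from 748700 to 1626000 in *Mmp13*-/-. Endothelial markers passed as lower in 5 and as higher in 1 of 8 cases, whereas 1 passed with total counts and 2 after the GC correction, each as higher. Schwann cell markers passed as lower in 2 of 8, in 4 without WT sample 2 or WT sample 5, and 1 passed after the GC correction, as higher. No gene of these lists was at 0 in every WT sample, and the part of other cells in the SIBLING results was not tested.

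Across the 6 samples, *Ibsp*, *Mepe* and *Spp1* followed one another in log2 CPM (Pearson's r 0.97 to 0.99), a description over samples that fall into 2 genotypes. The genes most like *Spp1* were *Fap*, *Snx10* and *Ctsk* (r 0.9982, 0.9980 and 0.9975), the first of which encodes a protease of activated fibroblasts. The closest to *Mepe* were *Pms1*, *Gm37053* and *Tmod2*, and the closest to *Ibsp* were *Zfp991*, *AC124579.1* and *Ccdc82*. For these members 1474 to 1538 genes had r over 0.95. *Dspp* was most like *Tmem5*, *Hspe1* and *Gtf2h5* (r 0.9994 to 0.9978), and *Dmp1* like *Gm26790*, *Olfml2b* and *AC134913.2* (r 0.9894 to 0.9761), with 393 and 30 genes over 0.95.

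The genes around the cluster were examined to see whether the change extended along the chromosome. Within 1 Mb on either side 28 further genes were tested, of which 9 passed as higher and 6 as lower, with a median log2 fold change of 0.21. Over all genes tested 27.3% passed as higher and 24.3% as lower, with a median of 0.10. Outside the family, the tested coding gene nearest to *Dspp*, *Sparcl1*, did not pass (0.14, edgeR adjusted p = 0.514). It is named for its position alone, after its value was seen. Past *Sparcl1*, *Gm17660* fell by 1.64 (edgeR adjusted p = 9.52e-05) and *Nudt9* by 0.80 on the log2 scale (edgeR adjusted p = 0.00375). Beyond *Spp1*, *Pkd2* lies 18.4 kb away and fell by 0.63 (edgeR adjusted p = 0.00624), and *BC005561* lies 67.3 kb away and rose by 1.61 (edgeR adjusted p = 0.000133). *Dmp1*, between *Dspp* and *Ibsp*, did not follow its neighbours. Higher genes also included *Gm42793*, which overlaps *Spp1*, and *Hsd17b11*, *Mapk10*, *Zfp951*, *Abcg3*, *Gbp8*, *Gbp9* and *D930016D06Rik*, and lower genes *Ptpn13*, *Aff1* and *Gm43333*.

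**Figure D5:**
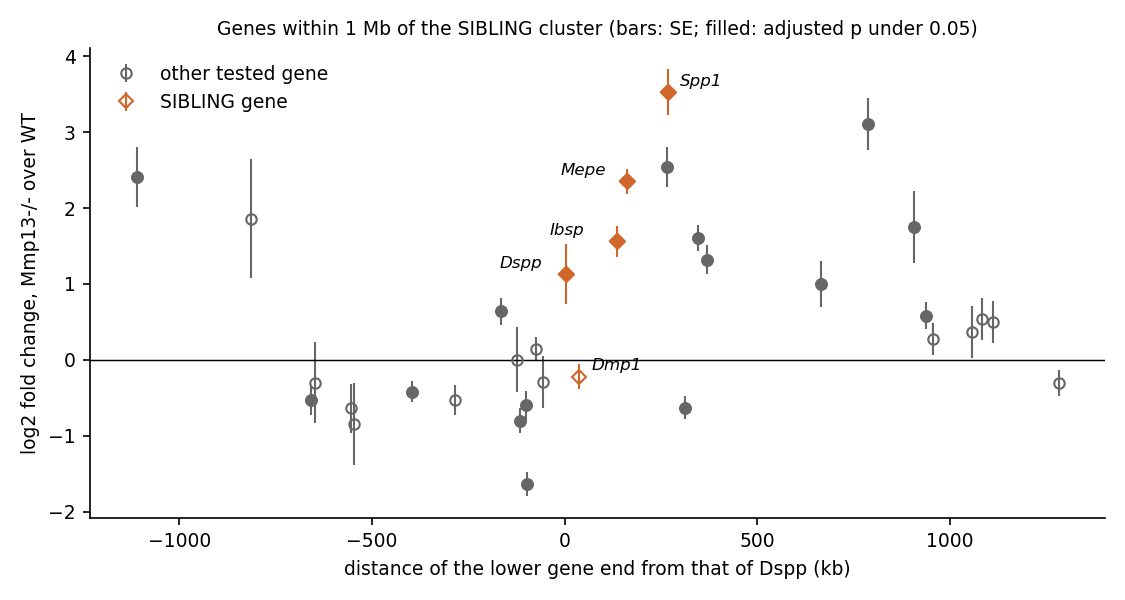
Log2 fold change (with standard errors) of the 5 SIBLING genes (diamonds) and 28 further tested genes (circles) against the distance from *Dspp* in kb, filled where the edgeR adjusted p was under 0.05. *Spp1*, at 3.53, and *Mepe*, at 2.35, lie within 270 kb of *Dspp*, and *Dmp1*, at −0.22, lies between higher members.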

How the data were processed

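Pulp RNA of 3 WT and 3 *Mmp13*-/- mice had been sequenced as paired reads. The authors made estimated counts per gene in Strand NGS from their aligned reads, and the deposited table carries them with fractions where reads were shared. They also deposited normalized log2 values, which were used only for limma and for the study's procedure as far as stated. The labels name the build mm10 and DESeq. Aligner settings and annotation are not given in the sources used here. No column of another series was found (0 columns).

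Estimated counts were rounded and tested over all 24534 genes with edgeR 4.0.16 in R 4.3.3, by the quasi-likelihood test with TMM factors, the edgeR filter by genotype and Benjamini-Hochberg adjustment. Positions, lengths and GC content came from GENCODE M21, matched by Ensembl identifier for 99.8% of genes. Alternatives were other scalings and filters, DESeq2 1.42.0, limma 3.58.1, the study's procedure, each sample left out, GC correction (loess, span 0.4), subtraction of a background rate measured on 1410 receptor genes, and removal of 13 satellite genes, the last added after seeing the data. The study's procedure was rebuilt only as far as it is stated, as a t-test with Storey's adjustment on the deposited log2 values. The fits were tested on simulated data. Library totals ran from 21561420 to 29980236, and counting error was not compared with the spread between samples. P-values from edgeR set a gene's difference between genotypes against the spread between these samples, estimated with information from all genes.

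The members and lists were chosen with earlier results of these data known. Named genes are the members, *Mmp13*, genes listed by role, the 3 genes most alike each member and genes within 1 Mb with an adjusted p under 0.05. *Sparcl1* was named outside this rule, as the tested coding gene outside the family nearest to *Dspp*. Ratios of members to other genes were chosen after values were seen. Lists are described by counts and medians without set tests.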

Additional observations from a re-analysis of the deposited data

How the results depend on the processing

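No paired analysis was possible because the genotypes share fewer than 2 replicate numbers. *Ibsp*, *Mepe* and *Spp1* kept direction and call under all 18 alternatives, whereas *Dspp* lost its call with DESeq2 (1.15), with limma (1.22) and with 4 of 6 samples left out (0.79 to 1.69 over all 6). The GC correction brought *Itgb3*, *Csf1r*, *Cd68*, *Mmp2*, *Smpd3* and *Sost* past the test as higher and ended the call of *Nes*. It turned the sign of *Dmp1* (0.24), *Fam20c* (0.10), *Mmp2* (0.62), *Itgav* (−0.22), *Itgb5* (0.03), *Sp7* (0.01), *Dlx5* (0.13), *Klf4* (0.20), *Smpd3* (0.55), *Sost* (0.80), *Ifitm5* (0.85), *Gpnmb* (0.16) and *Olfml2b* (0.30), and left 5 enzymes and 5 regulators passing, against 9 and 11. The median over all genes was 0.33 after that correction, against 0.10 in the main fit. *Dmp1*, *Fam20c*, *Itgav*, *Itgb5*, *Sp7*, *Dlx5*, *Klf4*, *Gpnmb* and *Olfml2b* lay below it. *Sost* was 0.01 with upper-quartile factors. *Ifitm5* was 0.16 with upper-quartile factors and without *Mmp13*-/- sample 1, 0.02 with total counts, 0.06 with at least 10 counts in every sample and 0.08 after background subtraction, and ran from −0.33 to 0.16 with samples left out. *Itgav* was −0.03 without a filter, −0.01 with limma and with the study's procedure, and −0.05, −0.02, −0.05 and −0.10 without WT samples 2 and 5 and *Mmp13*-/- samples 1 and 2, and *Amelx* was −0.08 without WT sample 5 and 1.76 without WT sample 2. Receptor genes that passed numbered 2 with total counts, 5 without a filter, 4 with limma and 4 to 6 with samples left out, against 8, and regulators 7 with total counts and 6 with limma. Genes passing in all numbered 19292 without a filter, 22979 with the study's procedure as far as stated and 8883 after the GC correction, against 12665. Those over 2-fold numbered 14325 without a filter and 15407 with the study's procedure as far as stated, against 7381. They numbered 4977 after the GC correction and 4666 with at least 10 counts in every sample. The study itself reported far fewer genes, with and without the 2-fold limit, than its procedure as rebuilt here. Without division by length the pool shares in WT and *Mmp13*-/- were 7.62% and 8.61% for *Ibsp*, 1.03% and 2.05% for *Mepe* and 3.13% and 13.8% for *Spp1*, and 70.3% for *Dspp* in *Mmp13*-/-. The median over all genes moved by 1.20 without a filter, 0.54 with limma and with the study's procedure, 0.23 after the GC correction, 0.21 under upper-quartile scaling and 0.11 under total counts. The causes were not tested.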
